A study of Mus musculus with 8 samples.

Results

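Chemokines are small secreted proteins that steer the movement of leukocytes, and their receptors are membrane proteins that signal through G proteins. The gene module described here holds 39 genes, 28 ligands and 11 receptors, out of 18194 genes named on the arrays. A gene was included when at least 1 probe set carried its symbol and no other, and each gene is represented by its probe set with the highest mean over the 8 arrays. The module held 59 such probe sets, with 25 genes measured by 1 probe set and 14 by several.

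Both groups were F4/80+ tumour-associated macrophages sorted by flow cytometry from mammary tumours of 80 day old FVB mice. All mice carried PyMT, the polyoma middle T transgene that drives mammary tumours, and E2f3 f/f, an E2f3 gene flanked by recombination sites. The control group (PyMT;E2f3 f/f, replicates B, C, D and G) had no Cre. The E2f3-deleted group (PyMT;Lys Cre:E2f3 f/f, replicates A, E, F and H) also carried Lys Cre, a recombinase driven from the lysozyme gene of myeloid cells. No group carried Cre alone, so the loss of E2f3, a transcription factor of cell cycle genes, and the presence of Cre cannot be told apart. Whether each array stands for its own animal is not in the labels, and the p-values therefore cover the spread among these 8 samples, which can be technical in part. The labels name each array's scan file by a letter that does not always match the letter in its title. Groups were taken from the titles, and the scan file letters would exchange replicates B and F between the groups, so values under that grouping are given for every member at an unadjusted p under 0.05 in either grouping.

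In tumours, macrophages are both a target and a source of chemokines. CCL2 acting on CCR2 draws monocytes out of the blood into the tumour, where they become macrophages. CXCL12, made by stromal and endothelial cells, acts on CXCR4 and is removed by the scavenger receptor ACKR3. The CXCR3 ligands CXCL9, CXCL10 and CXCL11 are made in response to interferon, and the CXCR2 ligands, such as CXCL1 and CXCL2, draw neutrophils.

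The 8 arrays had similar signal distributions, with medians of 5.65 to 5.69 on the log2 scale. Replicate H of the E2f3-deleted group stood apart, with a mean correlation of 0.983 with its own group. The other E2f3-deleted arrays had 0.990 to 0.991 and the controls 0.994 to 0.995. The brighter E2f3 probe set had means of 7.67 in controls and 7.63 in the E2f3-deleted group, and the deleted part of the gene is not named in the labels. Macrophage markers were high, with 8 of 8 above the minimum level used for testing (log2 6.0) and a mean log2 signal over the list of 12.68 to 12.76 in controls and 12.41 to 12.63 in the E2f3-deleted group. Markers of other cells were also present. Over all markers with a probe set, the median difference between the E2f3-deleted and control means was 1.25 for 10 endothelial, 1.15 for 8 mast cell, 0.76 for 8 fibroblast and 0.45 for 7 epithelial markers. Array by array, the mast cell median relative to the control mean was 0.34, 1.18, −0.35 and 3.59 in replicates A, E, F and H, so replicate H was far the highest and replicate F lay below the control mean. The log2 signal of Gapdh at its 3′ end exceeded that at its 5′ end, a gap that grows as RNA degrades, by 1.39 to 1.53 in controls and 1.48 to 1.87 in the E2f3-deleted group. The part of RNA integrity in the results was not tested.

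Differences are given as E2f3-deleted minus control in log2 units, with the limma standard error. Of the 39 members, 30 passed the minimum level, 23 ligands and 7 receptors. None of the 30 passed an adjusted p of 0.05 in limma, nor did any of the 10916 genes tested (0% called). Over all genes that count was 60 without E2f3-deleted replicate E and 14 without replicate H, with 0 members called in either case. At an unadjusted p under 0.05 there were 3 ligands (Cxcl12 higher, Cxcl14 and Cxcl16 lower) and 2 receptors (Ackr3 higher, Ccr1 lower), where 14.2% of all genes tested passed. The groups did not overlap in 1 ligand, Cxcl12, which was higher, and 1 receptor, Ccr1, which was lower, against 8.49% of all genes (4.26% higher and 4.23% lower). Of the 30 members 2, Cxcl12 and Ackr3, differed at least 2-fold, both higher, against 1.95% of all genes in either direction and 1.91% higher. Ackr3 passed the minimum level only through the E2f3-deleted group, as did 163 of all genes tested. It could enter these counts, and that of receptors at an unadjusted p under 0.05, only because it was higher there. Differences were below 0 in 16 of 23 ligands and 5 of 7 receptors and above 0 in 7 and 2, where 58.7% of all genes lay below 0 and 41.3% above. The median difference was −0.20 for ligands and −0.16 for receptors, against −0.03 for all genes. Over all 28 ligands and all 11 receptors, those under the minimum level included, it was −0.15 and −0.12. The ligand median was 0.0037 without E2f3-deleted replicate E and −0.024 without replicate H, and the receptor median was −0.027 without replicate E. With array weights the ligand median was −0.078. The 3 ligands at an unadjusted p under 0.05 became 1 without control replicate B, and the 2 receptors became 0 without control replicate B and 1 without control replicate D or E2f3-deleted replicate A. Grouping by scan file letter left none of these 5 members at an unadjusted p under 0.05 and brought in Cxcl13. For 29 of the 30 members the difference was smaller than the range of values within the wider of the groups, and the exception was Cxcl12. How many of all genes meet this was not counted, so it is not shown to be particular to the members.

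**Figure D1:**
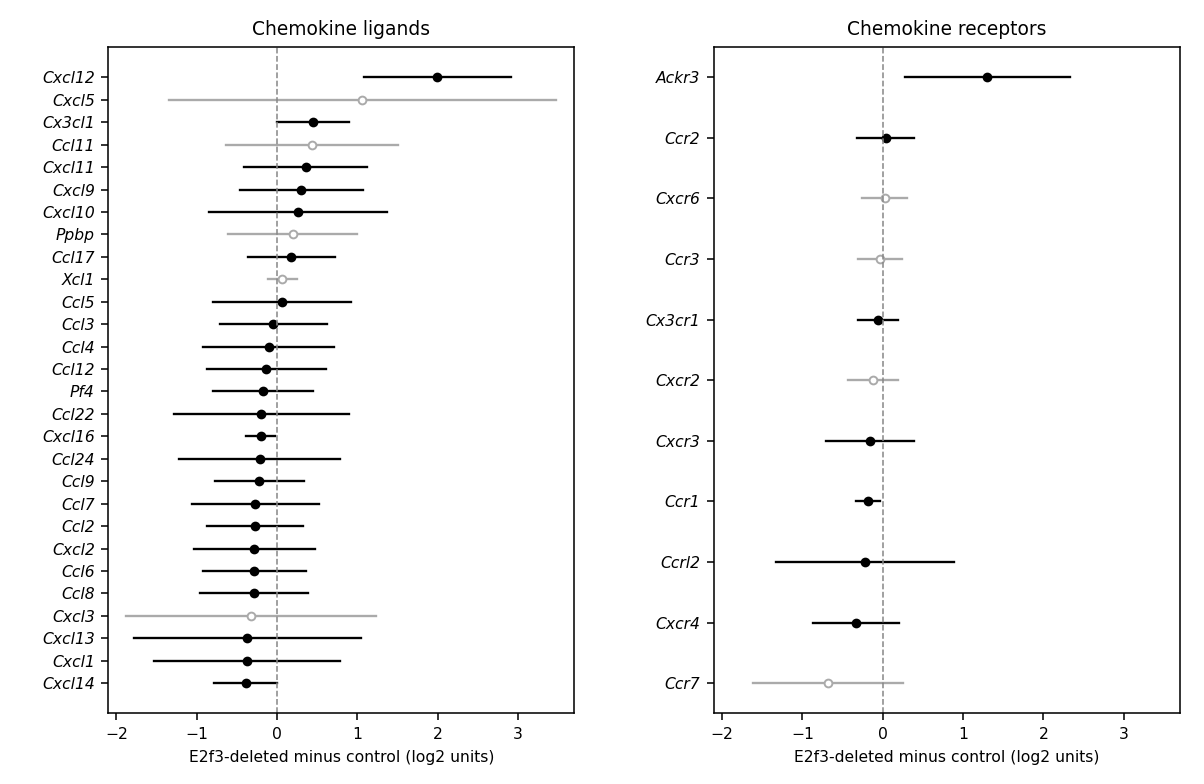
Difference between E2f3-deleted and control macrophages (log2 units, horizontal axis) for 28 ligands (left) and 11 receptors (right). Points are limma estimates and bars 95% confidence intervals from 4 arrays a group, and open grey points mark the 9 members under the minimum level. Cxcl12 (1.99) and Ackr3 (1.30) lie farthest to the right among the members that passed it. Ackr3 passed it only through the E2f3-deleted group.

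The largest difference in the module was that of Cxcl12, the stromal ligand of CXCR4. Its log2 signal was 6.48, 7.87, 7.89 and 7.28 in control replicates B, C, D and G and 10.15, 9.09, 9.59 and 8.67 in replicates A, E, F and H of the E2f3-deleted group. Every E2f3-deleted array lay above every control array. The means were 7.38 ± 0.664 and 9.38 ± 0.640 (SD, n = 4 each), a difference of 1.99 (SE 0.399), which is 3.99-fold with a 95% interval from 2.11 to 7.53. It did not pass the threshold over all genes tested (limma, unadjusted p = 0.00102, adjusted p = 0.163; adjusted p from 0.0756 to 0.929 over the alternatives). A further Cxcl12 probe set differed by 1.48 (SE 0.546) with overlapping groups. The remaining one, with a mean signal of 4.89, differed by −0.02. Grouping by scan file letter gave a difference of 0.44 (limma, adjusted p = 0.929), while averaging the 3 probe sets gave 1.15.

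Ackr3, the scavenger receptor that takes up CXCL12, was the other member with a difference of at least 2-fold. Its log2 signal was 4.97, 5.64, 5.78 and 5.64 in control replicates B, C, D and G and 6.63, 5.71, 6.86 and 8.06 in replicates A, E, F and H of the E2f3-deleted group. The groups overlapped through E2f3-deleted replicate E, which lay below control replicate D. The means were 5.51 ± 0.368 and 6.81 ± 0.968 (SD, n = 4 each), a difference of 1.30 (SE 0.448; limma, unadjusted p = 0.0192, adjusted p = 0.278). It was 0.89 without replicate H and 1.67 without replicate E, and grouping by scan file letter gave 0.36. Ackr3 passed the minimum level only through the E2f3-deleted group, since its control mean lay below log2 6.0, so it could enter the test only because it was higher there.

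Cxcr4, the signalling receptor of CXCL12, had a difference below 0. Its log2 signal was 7.97, 8.78, 8.63 and 8.07 in control replicates B, C, D and G and 8.11, 8.34, 8.17 and 7.53 in replicates A, E, F and H of the E2f3-deleted group. The groups overlapped, with replicate H lowest, and the difference was −0.33 (SE 0.233; limma, adjusted p = 0.533) or −0.16 without replicate H.

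Cxcl12 lay above the control range in all E2f3-deleted replicates, and the median of endothelial markers did so in replicates A, E and F only. Of the 10 listed, 8 passed the minimum level, 3 of them only through the E2f3-deleted group, and Pecam1 and Cdh5 did not. All 8 were at least 2-fold higher, against 1.91% of all genes tested. All 8 were also higher at an unadjusted p under 0.05 (limma), against 7.27% of all genes. The 3 could enter these counts only because they were higher in the E2f3-deleted group. The mean log2 signal over the list was 6.08 to 7.05 in controls and 6.66 to 8.62 in the E2f3-deleted group. Relative to the control mean, the median over all 10 was 1.9, 1.03, 2.01 and 0.08 in replicates A, E, F and H, with controls from −0.45 to 0.48. Cxcl12 in replicate H (8.67) lay above every control array, the highest of which was 7.89, while its endothelial median lay within the control range. Of the 8 endothelial markers that passed the minimum level, only Erg also lay above every control in replicate H. Its signal there was 6.23, against 6.20 in the highest control, and its control mean of 5.76 was under the minimum level. Without replicate H the Cxcl12 difference was 2.23. Fibroblast markers, of which 8 of 8 passed the minimum level, had a mean log2 signal of 9.45 to 10.81 in controls and 9.88 to 12.10 in the E2f3-deleted group, with medians relative to the control mean of 1.05, −0.50, −0.05 and 1.94 in replicates A, E, F and H. Ackr3 was highest in replicate H, where the fibroblast and mast cell medians were also highest. Of 8 mast cell markers 6 passed the minimum level, 3 of them only through the E2f3-deleted group, Fcer1a and Hdc did not, and the mean over the list was 5.69 to 6.28 in controls and 5.92 to 9.0 in the E2f3-deleted group. The part of these cells in the Cxcl12 and Ackr3 differences was not tested, and in a bulk sample more cells of a type and more RNA per cell cannot be told apart.

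**Figure D2:**
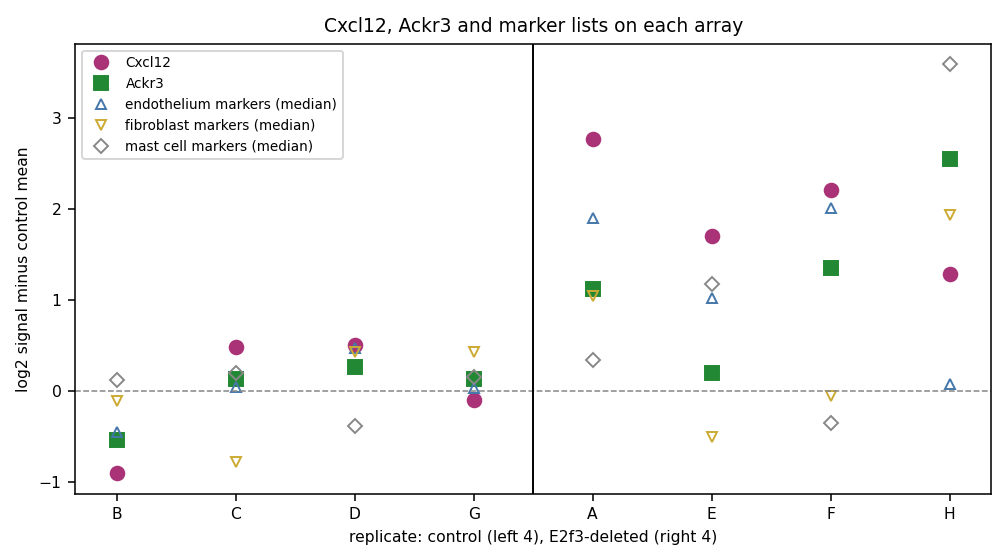
Log2 signal minus the control mean (vertical axis) on each of the 8 arrays for Cxcl12 and Ackr3 (filled) and the medians of endothelial, fibroblast and mast cell markers (open). Cxcl12 is above all controls on each E2f3-deleted array, the endothelial median is 1.9, 1.03 and 2.01 in replicates A, E and F and 0.08 in H, and the mast cell median reaches 3.59 in H.

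The promoters of Cxcl12 and Ackr3 are shown because these genes had the largest differences between groups defined by an E2F gene. Each is the 250 bases before the gene's start in RefSeq (GRCm38.p6, plus strand), at chr6:117168285-117168534 for Cxcl12 and chr1:90203730-90203979 for Ackr3, and capitals mark a match to an E2F motif.
Cxcl12: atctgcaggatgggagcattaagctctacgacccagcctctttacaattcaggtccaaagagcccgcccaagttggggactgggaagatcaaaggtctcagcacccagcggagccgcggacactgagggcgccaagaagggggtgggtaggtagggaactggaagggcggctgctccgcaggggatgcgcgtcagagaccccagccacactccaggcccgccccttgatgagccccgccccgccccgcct
Ackr3: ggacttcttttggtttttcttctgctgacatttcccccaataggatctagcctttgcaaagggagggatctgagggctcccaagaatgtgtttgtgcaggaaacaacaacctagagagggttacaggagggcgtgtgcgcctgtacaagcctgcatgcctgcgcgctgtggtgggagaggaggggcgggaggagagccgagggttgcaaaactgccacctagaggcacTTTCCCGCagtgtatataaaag
The E2F motif was searched as TTTCCCGC, TTTCGCGC, TTTGCCGC or TTTGGCGC on both strands. Windows were found for 29 of the 39 members, and were not found for Ccl2, Ccl4, Ccl5, Ccl7, Ccl11, Ccl24, Cxcl5, Cxcl11, Cxcl16 and Ccr7. The 29 members had 31 windows, and a member was counted when any of its windows held a match. The motif was in 1 of the 29, Ackr3, where it begins 22 bases before the start, against 1.86% of the 32851 windows of all gene starts. No match to it was found in the Cxcl12 window. A match is a string of letters and not a measured binding site.

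Cxcl14 and Cxcl13 complete the homeostatic CXC ligands. Cxcl14, a chemokine of epithelia and stroma, had a log2 signal of 10.15, 10.23, 10.43 and 9.75 in control replicates B, C, D and G and 10.00, 9.74, 9.84 and 9.41 in replicates A, E, F and H of the E2f3-deleted group. The groups overlapped through control replicate G, and the difference was −0.39 (SE 0.168; limma, unadjusted p = 0.0480, adjusted p = 0.348). The unadjusted p (limma) was 0.00919 to 0.125 with each array left out, above 0.05 without any 1 of control replicates B, C and D or E2f3-deleted replicates E, F and H. Grouping by scan file letter gave −0.24 (limma, unadjusted p = 0.271). A dimmer Cxcl14 probe set differed by −0.26. Cxcl13, the B cell attractant, had the widest spread of the 3 in the E2f3-deleted group, from 6.60 in replicate E to 9.91 in replicate F, with controls from 7.91 to 8.77. Its difference of −0.37 (SE 0.614) was −0.97 without replicate F and 0.13 without replicate E. Grouping by scan file letter gave −1.37 (SE 0.406; limma, unadjusted p = 0.00978, adjusted p = 0.893), which made Cxcl13 the 1 member at an unadjusted p under 0.05 in that grouping, where 4.11% of all genes passed.

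**Figure D3:**
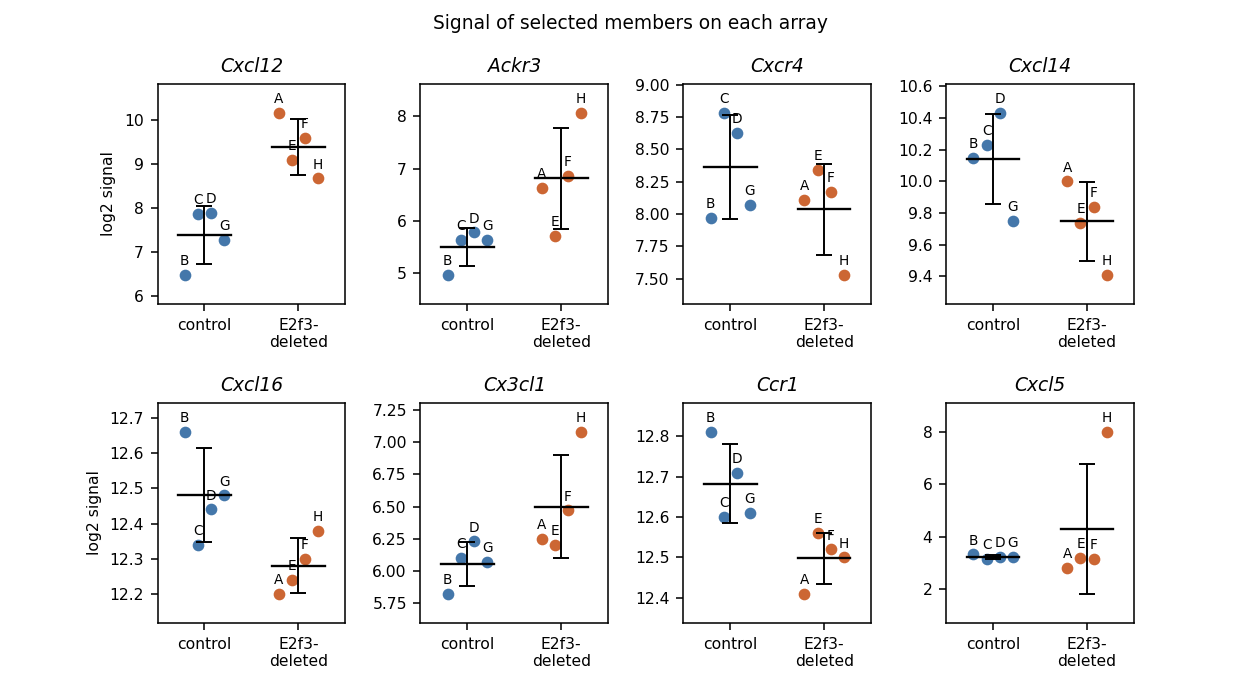
Log2 signal (vertical axis) of 8 members on each array, control and E2f3-deleted, with letters naming the replicates, bars for the mean and whiskers for the SD (n = 4 each). Groups are apart for Cxcl12 and Ccr1, overlap for the others, and replicate H holds the highest value of Ackr3, Cx3cl1 and Cxcl5.

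Cxcl16 and Cx3cl1 encode ligands that sit in the membrane and can be shed by the proteases ADAM10 and ADAM17. Cxcl16, the ligand of CXCR6, had a log2 signal of 12.66, 12.34, 12.44 and 12.48 in control replicates B, C, D and G and 12.20, 12.24, 12.30 and 12.38 in replicates A, E, F and H of the E2f3-deleted group. Only control replicate C and E2f3-deleted replicate H kept the groups from separating. The difference was −0.20 (SE 0.0783; limma, unadjusted p = 0.0331, adjusted p = 0.313), and the second Cxcl16 probe set differed by −0.19 with groups that did not overlap. Grouping by scan file letter left −0.023, and the unadjusted p (limma) was above 0.05 without any 1 of control replicates B and G or E2f3-deleted replicates A, E and F, at most 0.0818. These signals are near the top of the scale, where array values are compressed.

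Cx3cl1, the ligand of CX3CR1, had a log2 signal of 5.82, 6.10, 6.23 and 6.07 in control replicates B, C, D and G and 6.25, 6.20, 6.47 and 7.08 in replicates A, E, F and H of the E2f3-deleted group. Replicate E lay below control replicate D, and replicate H was highest. The difference of 0.44 (SE 0.194; limma, unadjusted p = 0.0502, adjusted p = 0.353) was 0.25 without replicate H and 0.12 by scan file letter. The 3 dimmer Cx3cl1 probe sets differed by 0.18, 0.23 and 0.056. Cx3cr1, its receptor on macrophages and monocytes, had a difference of −0.06 (SE 0.109, 95% interval −0.31 to 0.19). Its means were 13.23 in controls and 13.17 in the E2f3-deleted group. A dimmer Cx3cr1 probe set differed by −0.26 (SE 0.14) with overlapping groups. Cxcr6, the receptor of CXCL16, was under the minimum level with means of 4.09 and 4.11. The sheddases Adam10 and Adam17 differed by 0.036 and 0.0089.

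The monocyte chemoattractant group, Ccl2, Ccl7, Ccl8 and Ccl12, had differences below 0 in 4 of 4 genes, from −0.29 to −0.13. None was at an unadjusted p under 0.05. Ccl2, the main ligand of CCR2, had a log2 signal of 9.97, 9.84, 10.68 and 9.88 in control replicates B, C, D and G and 9.16, 9.95, 10.11 and 10.05 in replicates A, E, F and H of the E2f3-deleted group. Replicate A was lowest and control replicate D highest, and the other 6 arrays lay between 9.84 and 10.11. The Ccl2 difference of −0.28 (SE 0.258; limma, adjusted p = 0.637) was −0.056 without replicate A. Ccl7, a neighbour of Ccl2 that also acts on CCR2, had −0.27 (SE 0.345) and −0.023 without replicate A. Ccl12, the third CCR2 ligand, had −0.13 (SE 0.321), and its sign turned without replicate A (0.083), without replicate E (0.00095) or without control replicate D (0.0040). Ccl8 had −0.29 (SE 0.292), with 12.32 in replicate H and 13.14 to 13.88 on the other 7 arrays, and −0.0070 without replicate H. The receptor Ccr2 had a log2 signal of 10.56, 10.50, 10.35 and 10.39 in control replicates B, C, D and G and 10.56, 10.67, 10.71 and 10.00 in replicates A, E, F and H of the E2f3-deleted group. Its difference was 0.035 (SE 0.154, 95% interval −0.32 to 0.39), and it was 0.20 without replicate H, −0.027 without replicate E and −0.039 without replicate F.

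The macrophage inflammatory protein ligands and their neighbours showed 2 patterns across the arrays. Ccl6 and Ccl9, neighbouring genes that macrophages express strongly, had their lowest values in replicate H. Replicate A also lay below every control in both genes, by far less. Ccl6 was 13.01, 13.30, 13.15 and 12.91 in control replicates B, C, D and G and 12.79, 13.33, 13.16 and 11.95 in replicates A, E, F and H of the E2f3-deleted group, a difference of −0.28 (SE 0.278; limma, adjusted p = 0.653) that became 0.0033 without replicate H. Ccl9 had −0.22 (SE 0.238), with 12.28 in replicate H and 13.02 to 13.45 elsewhere, and 0.024 without replicate H. Ccl3 and Ccl4, inflammatory chemokines induced by NF-kappaB, were instead highest in replicate H. Ccl3 ranged from 9.93 to 10.78 in controls and from 9.83 in replicate E to 11.02 in replicate H, a difference of −0.046 (SE 0.288), with a sign that turned in 4 of the 8 leave-one-out fits. Ccl4 ranged from 7.80 to 8.85 in controls and from 7.67 in replicate F to 9.24 in replicate H, a difference of −0.10 (SE 0.354), and its sign turned in 3 of them. Ccl5, made by T cells and macrophages, spread more in controls (6.76 in replicate C to 8.80 in replicate G) than in the E2f3-deleted group (7.59 to 8.0), with a difference of 0.064 (SE 0.374) that was −0.24 without control replicate C and −0.021 without E2f3-deleted replicate F.

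Ccr1, the receptor of Ccl3, Ccl6 and Ccl9, was the receptor whose groups did not overlap. Its log2 signal was 12.81, 12.60, 12.71 and 12.61 in control replicates B, C, D and G and 12.41, 12.56, 12.52 and 12.50 in replicates A, E, F and H of the E2f3-deleted group. The lowest control and the highest E2f3-deleted array were close, at 12.60 and 12.56. The difference was −0.18 (SE 0.0654, 95% interval −0.33 to −0.03), 0.881 times the control signal (limma, unadjusted p = 0.0229, adjusted p = 0.287). The dimmer Ccr1 probe set differed by −0.19 with overlapping groups. Grouping by scan file letter left −0.039. Of 8 macrophage markers 7 lay below 0, with a list median of −0.16, where 58.7% of all genes lay below 0. The sorting marker Adgre1 was at −0.18, Csf1r at −0.0065 and Cd14, the 1 above 0, at 0.014. The part of these markers in the Ccr1 difference was not tested.

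The ligands of CXCR2, which attract neutrophils, differed between arrays far more than between groups. Cxcl1 had a log2 signal of 10.61, 9.30, 10.30 and 9.27 in control replicates B, C, D and G and 9.79, 8.32, 9.31 and 10.57 in replicates A, E, F and H of the E2f3-deleted group, a difference of −0.37 (SE 0.503; limma, adjusted p = 0.748). Cxcl2 had 12.80, 12.22, 12.54 and 12.31 and then 12.39, 11.27, 12.11 and 12.99 in the same order, a difference of −0.28 (SE 0.330). In both genes replicate E was lowest and replicate H and control replicate B were the highest pair. Without replicate E the differences were 0.019 for Cxcl1 and 0.025 for Cxcl2, and without replicate H they were −0.73 and −0.55. Ccrl2, an atypical receptor that binds the chemoattractant chemerin, had the same arrays at its ends. It was 9.78 in replicate E and 12.32 in replicate H, with controls from 11.09 to 11.72, a difference of −0.22 (SE 0.481) that became 0.21 without replicate E.

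The promoters of Cxcl1 and Cxcl2 are shown because these neighbouring genes had the same lowest array and the same highest pair of arrays. They are the 250 bases before each start (RefSeq, GRCm38.p6, plus strand), at chr5:90890995-90891244 for Cxcl1 and chr5:90903649-90903898 for Cxcl2, and capitals mark matches to the kB consensus, the sequence bound by NF-kappaB.
Cxcl1: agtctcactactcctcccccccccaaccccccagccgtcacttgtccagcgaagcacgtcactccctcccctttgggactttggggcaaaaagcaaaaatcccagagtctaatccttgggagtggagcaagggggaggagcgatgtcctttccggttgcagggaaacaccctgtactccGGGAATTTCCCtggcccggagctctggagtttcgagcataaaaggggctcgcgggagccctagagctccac
Cxcl2: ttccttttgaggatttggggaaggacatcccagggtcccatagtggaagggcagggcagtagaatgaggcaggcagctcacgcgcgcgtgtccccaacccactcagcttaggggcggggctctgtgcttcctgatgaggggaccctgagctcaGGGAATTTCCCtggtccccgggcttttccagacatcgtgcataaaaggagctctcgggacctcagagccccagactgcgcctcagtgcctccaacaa
Each capital run has 11 bases and holds overlapping matches on the plus and the minus strand. The run begins 71 bases before the start in Cxcl1 and 97 bases before it in Cxcl2. The kB consensus was searched as GGGRNNYYCC on both strands, where R is A or G, Y is C or T and N is any base. It was in the windows of 8 of 29 members (Ccl9, Ccr1, Ccr3, Ccrl2, Cxcl1, Cxcl2, Cxcl3 and Cxcl10), against 7.25% of all windows. The first count is of genes with a match in any window and the second of single windows. A kB match is not a measured binding site, and the part of NF-kappaB in these values was not tested.

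The other CXCR2 ligands were under the minimum level. Cxcl5 had a log2 signal of 3.32, 3.16, 3.22 and 3.22 in control replicates B, C, D and G and 2.81, 3.19, 3.16 and 8.0 in replicates A, E, F and H of the E2f3-deleted group. Replicate H lay 4.68 above the next array and the other 7 were close together. The group difference of 1.06 (SE 1.05; limma without a minimum level, adjusted p = 0.704) came with the other 3 E2f3-deleted arrays all below the highest control. In replicate H the mast cell median was 3.59 and the fibroblast median 1.94 above the control mean, and the neutrophil median was −0.21. The part of these cells was not tested. Cxcl3, a neighbour of Cxcl1 and Cxcl2, ranged from 3.36 to 5.92 over the 8 arrays with a difference of −0.32 (SE 0.681). Ppbp, a platelet chemokine that is processed to a CXCR2 ligand, ranged from 4.92 to 6.33 with a difference of 0.19 (SE 0.349). The receptor Cxcr2 had means of 5.01 in controls and 4.89 in the E2f3-deleted group.

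The interferon-induced CXCR3 ligands were the ligand group with differences above 0 in 3 of 3 genes, and none was at an unadjusted p under 0.05. Cxcl11 had a log2 signal of 6.56, 6.24, 7.82 and 7.46 in control replicates B, C, D and G and 7.21, 7.38, 7.68 and 7.23 in replicates A, E, F and H of the E2f3-deleted group. All E2f3-deleted arrays lay within the range of the controls, and the difference was 0.35 (SE 0.335; limma, adjusted p = 0.639). Cxcl9 had 7.63, 6.99, 8.04 and 8.48 in controls and 8.57, 7.51, 8.19 and 8.08 in the E2f3-deleted group, a difference of 0.30 (SE 0.334). Control replicate C was the lowest array for Cxcl9, Cxcl10 and Cxcl11, and without it the differences of Cxcl9 and Cxcl11 were 0.037 and 0.095. Cxcl10 had 10.20 in replicate H and 7.77 to 8.82 on the other 7 arrays, a difference of 0.26 (SE 0.481) that turned to −0.22 without replicate H. Their receptor Cxcr3, found on activated T cells among others, had means of 8.23 in controls and 8.07 in the E2f3-deleted group, a difference of −0.16 (SE 0.240) that was 0.031 without replicate H and 0.024 without control replicate C.

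The remaining CC ligands belong to type 2 responses. Ccl24, a ligand of the eosinophil receptor CCR3, was 9.47 in control replicate C, 7.89 to 7.97 in the other controls and 7.19 to 8.69 in the E2f3-deleted group. Its difference of −0.21 (SE 0.434) was 0.17 without control replicate C and 0.092 without replicate H. Ccl11, also a CCR3 ligand, was under the minimum level, with 5.16 to 5.74 in controls and 6.88, 5.68, 6.86 and 4.66 in replicates A, E, F and H. Ccr3 itself had means of 3.05 and 3.02, under the minimum level. Ccl17 and Ccl22 act on CCR4 and are made by dendritic cells and alternatively activated macrophages. Ccl17 had a difference of 0.18 (SE 0.236), 0.024 without replicate A and 0.42 without replicate H. Ccl22 was 7.89 in control replicate G and 5.55 to 6.63 on the other 7 arrays, a difference of −0.20 (SE 0.473) that was 0.30 without control replicate G.

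Pf4, platelet factor 4, which macrophages also express, had means of 12.99 in controls and 12.81 in the E2f3-deleted group, with 12.04 in replicate H and 12.59 to 13.42 elsewhere. Its difference of −0.18 (SE 0.273) was 0.080 without replicate H. Of 6 megakaryocyte and platelet markers with a probe set, 4 passed the minimum level, and the mean log2 signal over all 6 was 6.13 to 6.20 in controls and 6.14 to 6.28 in the E2f3-deleted group. Xcl1, a ligand made by T and natural killer cells, was under the minimum level with means of 3.32 and 3.39.

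Ccr7, which guides dendritic cells and lymphocytes to lymph nodes, was also under the minimum level. Its log2 signal was 6.32, 4.99, 5.0 and 6.81 in control replicates B, C, D and G and 4.95, 5.21, 5.40 and 4.83 in replicates A, E, F and H of the E2f3-deleted group. Control replicates B and G stood above the other 6 arrays, and the difference was −0.68 (SE 0.409; limma without a minimum level, adjusted p = 0.540). B cell markers were highest on the same arrays, with medians of 0.45 and 0.71 relative to the control mean in control replicates B and G and −1.61 to 0.15 in the E2f3-deleted group. Of 3 B cell markers with a probe set, 2 passed the minimum level, Ms4a1 only through the control group, and Cd79a did not. The mean over the list was 5.71 to 8.06 in controls and 5.17 to 7.03 in the E2f3-deleted group. The part of B cells in the Ccr7 values was not tested.

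Replicate H held the ends of many members. Among the 30 members that passed the minimum level it had the highest value of the 8 arrays in 9 (Ccl3, Ccl4, Ccl12, Cxcl2, Cxcl10, Cx3cl1, Ackr3, Ccrl2 and Cx3cr1) and the lowest in 10 (Ccl6, Ccl8, Ccl9, Ccl17, Ccl24, Cxcl14, Pf4, Ccr2, Cxcr3 and Cxcr4). Every other array held the highest value in 1 to 5 members and the lowest in 0 to 5. The share of all genes tested with their ends in replicate H was not counted. Over all probe sets this array had the lowest mean correlation with its own group, 0.983, so the counts are not shown to be particular to the module. Replicate E had the lowest value in 5, Ccl3, Cxcl1, Cxcl2, Cxcl13 and Ccrl2. Replicate A had it in 5 as well, Ccl2, Ccl7, Ccl12, Cxcl16 and Ccr1.

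**Figure D4:**
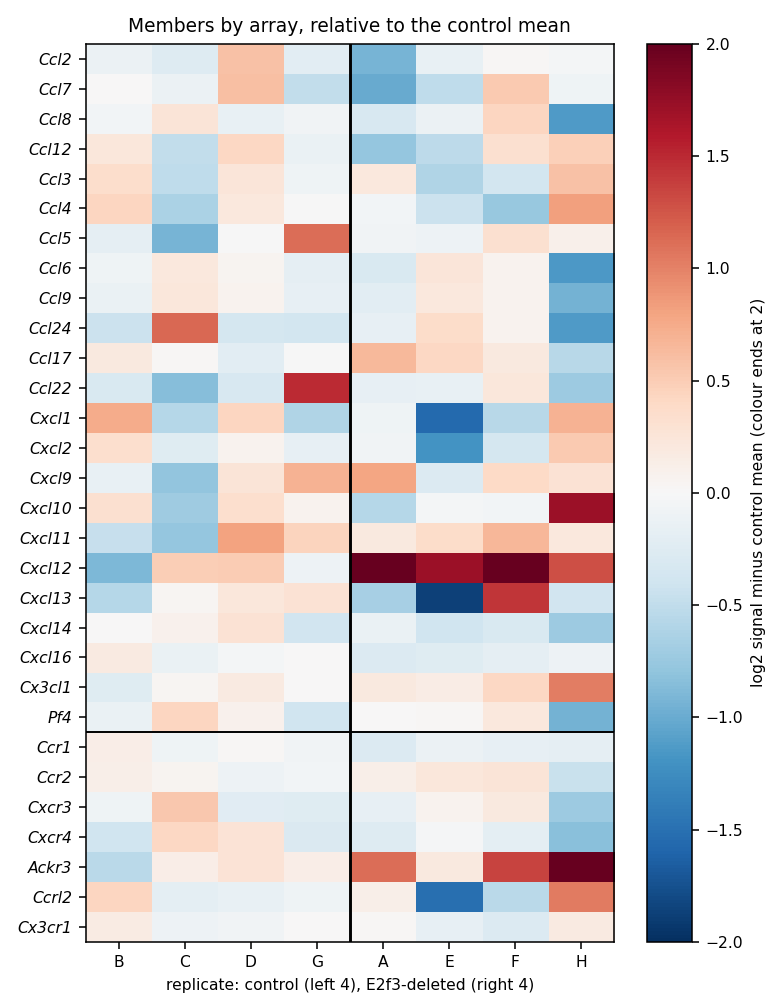
Log2 signal minus the control mean (colour, ending at 2 in each direction) for the 30 members above the minimum level, ligands over receptors, on the 4 control (left) and 4 E2f3-deleted arrays (right). The Cxcl12 row is red in each E2f3-deleted column, replicate H holds the highest value of 9 members and the lowest of 10, and replicate E is blue for Cxcl1, Cxcl2, Cxcl13 and Ccrl2. The share of all genes with their ends in replicate H was not counted.

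Many members are neighbours in the genome, in 6 runs with at most 3 other protein-coding genes between members in the RefSeq gene table. Ccl2, Ccl7, Ccl11, Ccl12 and Ccl8 form a run in which the 4 members above the minimum level had differences from −0.29 to −0.13. Ccl5, Ccl9, Ccl6, Ccl3 and Ccl4 form another, with differences from −0.28 to 0.06. In the run of Cxcl5, Ppbp, Pf4, Cxcl3, Cxcl1 and Cxcl2, the 3 members above the minimum level lay from −0.37 to −0.18, and in the pair Cxcl9 and Cxcl10 at 0.30 and 0.26. Ccl22, Cx3cl1 and Ccl17 are neighbours with differences from −0.20 to 0.44. The receptor run of Cxcr6, Ccr1, Ccr3 and Ccr2 had 2 members above the minimum level, at −0.18 and 0.035. Neighbouring genes with similar sequences, such as Ccl3 and Ccl4, may share probe signal, which was not tested.

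Other genes of chemokine signalling were listed by role. Of 60 genes in 5 lists, 54 had a probe set and 42 passed the minimum level. None passed an adjusted p of 0.05, and 10 were at an unadjusted p under 0.05, 2 higher and 8 lower, where 7.27% and 6.91% of all genes passed in those directions. The 8 lower genes were all among the 20 G protein subunits and effectors, of which 17 lay below 0 with a median of −0.11. Array by array, the median of these 20 relative to the control mean was −0.07, −0.06, −0.06 and −0.29 in replicates A, E, F and H, lowest in replicate H. The median of the 8 macrophage markers was −0.19, −0.17, −0.11 and −0.18 on the same arrays, with 3 of the 8 at an unadjusted p under 0.05, all lower. The part of these markers in the differences of the signalling genes was not tested. Vav1, an exchange factor for Rac, had a difference of −0.23 (SE 0.0671; limma, unadjusted p = 0.00827, adjusted p = 0.237). Pik3cg, the lipid kinase driven by G protein subunits, had −0.26 (SE 0.0823; limma, unadjusted p = 0.0143, adjusted p = 0.264). The groups did not overlap for either. Of the 10 genes of receptor desensitisation 7 lay below 0 and 0 were at an unadjusted p under 0.05, with Arrb2, a beta-arrestin, at −0.15 and Rgs19, an inhibitor of G protein signals, at −0.16. Among genes that process ligands or receptors, Tpst1, a sulfotransferase that modifies receptor tyrosines, had 0.32 (SE 0.129; limma, adjusted p = 0.319) and Sdc1, a proteoglycan, 0.37 (SE 0.296). Of the other ligands Ccl27a had 0.26 (SE 0.0914) and Ccl1, under the minimum level, −0.27 (SE 0.0922). Of the other receptors, the scavenger Ackr1 had the widest difference of the 42 tested, 0.77 (SE 0.416; limma, adjusted p = 0.430). Its log2 signal was 5.66, 6.14, 5.78 and 6.06 in control replicates B, C, D and G and 7.26, 6.59, 7.46 and 5.39 in replicates A, E, F and H of the E2f3-deleted group. It passed the minimum level only through the E2f3-deleted group. Its order over replicates F, A, E and H was that of the median over all 10 endothelial markers. Over the 8 that passed the minimum level, the median was 2.02, 1.1, 2.01 and 0.17 in replicates A, E, F and H. That median had replicates A and F in the other order. The part of endothelial cells was not tested. The scavenger Ackr2, under the minimum level, had −0.20 (SE 0.0858).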

How the data were processed

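RNA was isolated with Trizol and turned into biotinylated cRNA for Affymetrix arrays, per the labels' protocols. The authors deposited log2 signals, 45101 probe sets on each of 8 arrays, computed with RMA, per the submitters' processing notes. No RMA version is given in the sources used here, nor which arrays were processed as a set. Because RMA brings all arrays to similar distributions, it can hide a change common to most genes. The number of arrays limits the precision.

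Gene names came from the platform annotation, in which 34958 probe sets had 1 symbol, 932 several and 9211 none here; Entrez identifiers of 34754 were found in RefSeq (GRCm38.p6). Each gene took its probe set with the highest mean. A minimum mean at the 40th percentile (log2 6.0) kept 10916 genes. limma 3.58.1 (R 4.3.3; lmFit, eBayes, two-sided, Benjamini-Hochberg over all genes tested, no covariates) compared the groups. Members under the minimum level took their values from a fit of all 18194 genes. Of the pathway lists, genes including Ccl19, Ccl21a, Ccl26, Cxcr1 and Grk2 were not analysed here.

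The members and lists were chosen with earlier results of these data known. Every member is given. Values on each array are given for the 4 ligands and 2 receptors with the smallest p in each direction, for members at an unadjusted p under 0.05 or with groups that do not overlap, and, outside this rule and chosen after their values were seen, for further members. Of each pathway list, the 2 genes with the smallest p are named. Alternatives were other minimum levels, averaged probe sets, further normalization, another prior, array weights, each array left out, and groups by scan file letter.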

Additional observations from a re-analysis of the deposited data

Results flagged for a closer look

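In 6 of 78 combinations of a member and a group of 4 arrays, 1 array lay far from the other 3 relative to the range of its group; about 1 in 20 such groups is picked out by chance. Cxcl5 in E2f3-deleted replicate H had a log2 signal of 8.0, with 2.81 to 3.19 in the other 3 arrays of its group. Ccl24 in control replicate C had 9.47, with 7.89 to 7.97 in the other controls. Ccl2 lay apart in both groups, with 10.68 in control replicate D against 9.84 to 9.97, and 9.16 in E2f3-deleted replicate A against 9.95 to 10.11. Ccl11, under the minimum level, had 5.16 in control replicate B against 5.71 to 5.74. Cxcr6, also under it, had 4.47 in E2f3-deleted replicate F against 3.97 to 4.03.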

How the results depend on the processing

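No ligand or receptor was called at an adjusted p of 0.05 under any alternative run. Over all genes, 60 were called without E2f3-deleted replicate E and 14 without replicate H, and 0 under every other alternative run. Ligands at an unadjusted p under 0.05, 3 in all, numbered 1 with further quantile normalization (Cxcl12) and 1 with groups by scan file letter (Cxcl13, not among the 3), and 1 to 3 with each array left out. Receptors, 2 in all, numbered 1 with the 60th percentile as minimum level, 0 by scan file letter and 0 to 3 with each array left out. The median ligand difference was −0.28 to 0.0037 and the median receptor difference −0.21 to −0.027 with each array left out, and the receptor median was −0.039 by scan file letter. Array weights moved the ligand median from −0.20 to −0.078. With the other minimum levels, averaged probe sets, both normalizations and the other prior, every member tested kept its sign. Array weights turned Ccl24 (0.095), Cxcl10 (−0.078), Pf4 (0.062) and Cxcr3 (0.028). Scan file letters turned Ccl3 (0.31), Ccl4 (0.49), Ccl5 (−0.19), Cxcl1 (0.28), Cxcl2 (0.065), Cxcl11 (−0.21), Ccr2 (−0.041), Ccrl2 (0.27) and Cx3cr1 (0.16). With each array left out 13 of 30 members kept their sign and 17 did not, and the lowest and highest differences of these 17 were −0.33 and 0.083 for Ccl12, −0.48 and 0.30 for Ccl22, −0.41 and 0.17 for Ccl24, −0.26 and 0.14 for Ccl3, −0.41 and 0.12 for Ccl4, −0.24 and 0.44 for Ccl5, −0.46 and 0.0033 for Ccl6, −0.36 and 0.024 for Ccl9, −0.039 and 0.20 for Ccr2, −0.64 and 0.21 for Ccrl2, −0.14 and 0.012 for Cx3cr1, −0.73 and 0.019 for Cxcl1, −0.22 and 0.54 for Cxcl10, −0.97 and 0.13 for Cxcl13, −0.55 and 0.025 for Cxcl2, −0.27 and 0.031 for Cxcr3, and −0.31 and 0.080 for Pf4. The cause was not tested. No paired analysis was possible because the groups share no replicate letters. The minimum level is a percentile of gene means and not a measured background. Members under it have low mean signals, where differences can be compressed. Single arrays can still lie above it, as Cxcl5 did at 8.0 in E2f3-deleted replicate H.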
